A study of Tachycineta bicolor and Sialia sialis and Hirundo rustica with 121 samples.

Results

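AVPR1A and VIPR1 encode a receptor for vasotocin and a receptor for vasoactive intestinal peptide (VIP). Both were followed here across 61 female and 60 male birds of 10 songbird species. The genes were taken by name, as 2 of the 10672 genes with a row in the deposited table of RNA-seq read counts, and each was present in 1 row. The tissue was the ventromedial telencephalon, a basal forebrain region. The birds were adults caught in the Midwestern United States while they set up territories and built nests, before laying. The labels name no drug or genetic treatment and separate the groups by species, sex and nesting strategy. They give no capture site, date or sequencing batch per bird, so whether these differed between species is not known here.

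Each of 5 families gave 1 obligate cavity nester, a species that nests only in cavities, and 1 less strict partner. In Hirundinidae the Tree Swallow was set against the Barn Swallow, in Parulidae the Prothonotary Warbler against the Yellow Warbler, and in Turdidae the Eastern Bluebird against the American Robin, each partner being an open cup nester. In Passeridae the Eurasian Tree Sparrow was set against the House Sparrow and in Troglodytidae the House Wren against the Carolina Wren, both partners being facultative cavity nesters. Each species had 6 females and 6 males, except that Tree Swallow had 7 females. The study compared nesting strategies in relation to territorial aggression, plasma testosterone and brain gene expression, and the behaviour and hormone measures are not used here. Because a family holds 1 species of each kind, nesting strategy and every other difference between those species cannot be told apart within a family.

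Vasotocin is the avian counterpart of mammalian vasopressin. AVPR1A is the V1a-type receptor, which couples through Gq proteins to phospholipase C and calcium release. VIPR1, also called VPAC1, is a class B receptor that binds VIP and the related peptide PACAP and couples mainly through Gs proteins to adenylyl cyclase and cyclic AMP. In songbirds both peptide systems have been studied in the septum, the bed nucleus of the stria terminalis and the hypothalamus, in connection with aggression, affiliation and pairing.

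Levels are given as CPM, the reads of a gene scaled to a common library total by the TMM method, and gene length does not enter them, so the levels of different genes are not compared. Total counts per bird ran from 4526413 to 7549296. AVPR1A had between 0 and 75 reads per bird (median 32) and VIPR1 between 8 and 145 (median 51), so counting error alone gives a coefficient of variation of 13.8% to 23.6% for AVPR1A and 9.91% to 20.97% for VIPR1, depending on the species. Both genes passed the filter on low counts in all fits. Septal markers were present in the libraries, with CRHR2 at 15.4 CPM or more and TRPC4 at 25.3 CPM or more in every bird, and so were the striatal markers PPP1R1B and DRD1, whose lowest birds had 3.58 and 19.8 CPM. Earlier results of these data had 6 libraries standing apart. House Sparrow female 3, Eastern Bluebird male 12 and females 3 and 4 of the Barn Swallow differed from the rest of their species, and Carolina Wren female 1 and male 3 went against their sex label. They were kept under their labels, and values without them stand beside the called receptor differences within families that they enter. Levels, marker counts and sums, and correlations include them.

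AVPR1A was highest in both swallows, the Yellow Warbler and the Eurasian Tree Sparrow and lowest in both wrens and the House Sparrow. Tree Swallows had 8.90 ± 1.77 CPM (mean ± SD, n = 13), with birds from 5.94 to 12.1. Yellow Warblers had 8.87 ± 2.31 CPM (n = 12), from 4.89 to 11.7, and Barn Swallows 8.09 ± 2.66 CPM (n = 12), from 4.71 to 13.1. Eurasian Tree Sparrows followed with 7.21 ± 1.31 CPM (n = 12). These species form the upper end of the order, and their birds overlapped widely.

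The middle of the AVPR1A order held 3 species with nearly equal means and unequal spread. Prothonotary Warblers had 5.43 ± 1.55 CPM (n = 12), American Robins 5.39 ± 3.60 CPM (n = 12) and Eastern Bluebirds 5.38 ± 3.07 CPM (n = 12). At the lower end, House Sparrows had 3.38 ± 1.02 CPM, House Wrens 3.31 ± 1.14 CPM and Carolina Wrens 3.29 ± 0.827 CPM (n = 12 each). The highest species mean was 2.70 times the lowest. The plot of AVPR1A by bird shows both wrens and the House Sparrow under 6 CPM in every bird, a level that many birds of the other 7 species exceeded.

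**Figure D1:**
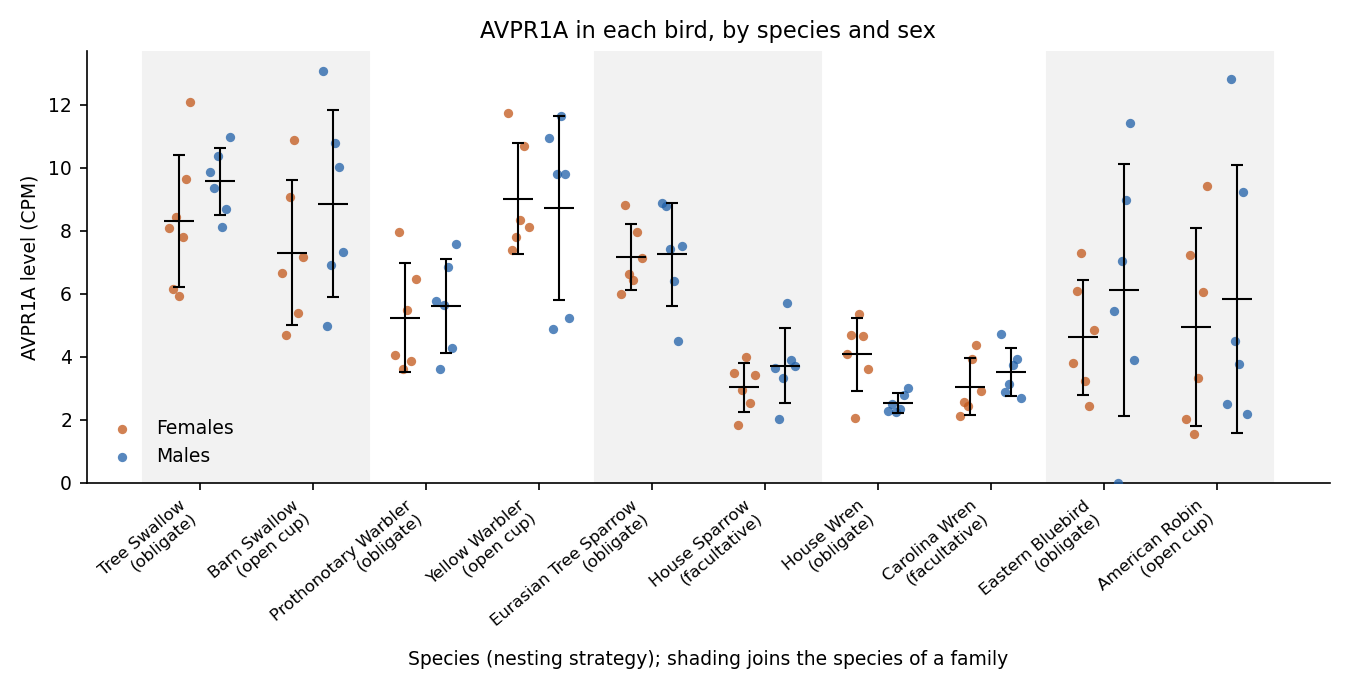
AVPR1A level (CPM, vertical axis) in each bird, by species and sex (horizontal axis). Points are birds, and black marks and bars are the mean ± SD of the birds of a species and sex. The birds of both Turdidae spread over most of the axis, and Eastern Bluebird male 11 sits at 0.

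Most neighbours in this order did not differ beyond their spread, and the call for 1 pair depended on the adjustment. A two-sided permutation test of log2 CPM found 0 of 9 neighbour pairs apart for AVPR1A after adjustment over the 18 neighbour pairs of both genes, and the widest step was from Eurasian Tree Sparrow to Prothonotary Warbler (0.41 on the log2 scale, adjusted p = 0.128). Over all pairs of species, 27 of 45 differed after adjustment over 90 pairs, and that step was then among them (adjusted p = 0.0119). Tree Swallow was above 7 of the 9 other species, and both wrens and the House Sparrow were each below 5. American Robin and Eastern Bluebird differed from the fewest species, 4 and 3, and in each of these pairs the thrush was the lower one.

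VIPR1 had another order. It was highest in the House Wren, the American Robin and the Carolina Wren and lowest in both sparrows. House Wrens had 16.0 ± 3.65 CPM (n = 12), with birds from 11.3 to 23.7, American Robins 15.6 ± 4.23 CPM (n = 12), from 10.1 to 22.8, and Carolina Wrens 12.4 ± 2.55 CPM (n = 12), from 8.76 to 18.3. Both wrens thus stood at the top of the VIPR1 order and at the bottom of the AVPR1A order.

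Barn Swallows had 9.82 ± 3.80 CPM of VIPR1, Tree Swallows 8.89 ± 2.48 CPM (n = 13), Eastern Bluebirds 7.76 ± 3.04 CPM and Yellow Warblers 7.65 ± 2.35 CPM (n = 12 where not given). Prothonotary Warblers had 5.78 ± 1.90 CPM, House Sparrows 4.39 ± 1.47 CPM and Eurasian Tree Sparrows 4.26 ± 1.17 CPM (n = 12 each). The highest species mean was 3.77 times the lowest, and no sparrow reached the lowest House Wren or American Robin: the highest sparrow had 7.29 CPM. For VIPR1, 0 of 9 neighbour pairs differed by the permutation test under either adjustment. Over all pairs 31 of 45 did, and the House Wren was above 8 of the 9 other species.

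**Figure D2:**
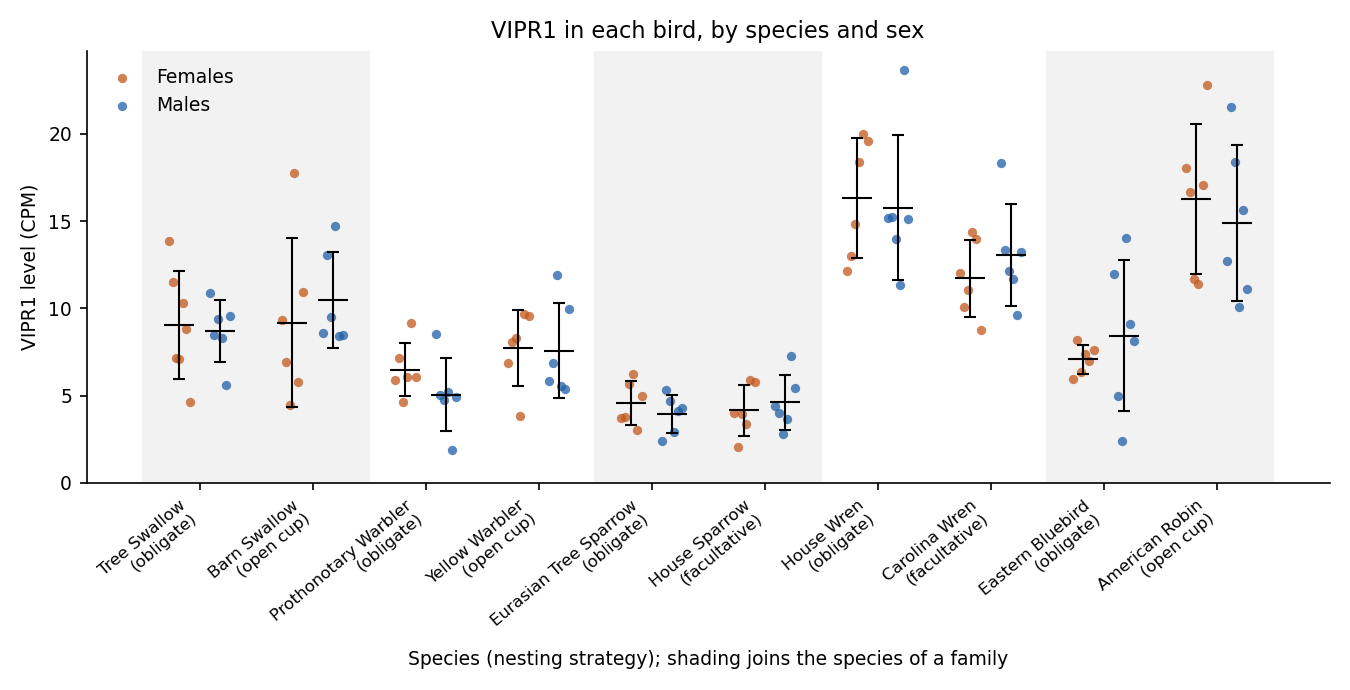
VIPR1 level (CPM, vertical axis) in each bird, by species and sex (horizontal axis), with mean ± SD in black. Wrens and American Robins sit highest, the sparrows of both species lie at or under 7.29 CPM, and House Wren male 7 is the highest bird at 23.7 CPM.

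Across the 10 species means of log2 CPM the receptors were weakly and inversely related (Pearson's r = -0.27, Spearman's rho = -0.28), which is given as a description over species that share families. Within species, no correlation between AVPR1A and VIPR1 passed adjustment over the 10 species. The American Robin had the highest value, r = 0.677 (n = 12, permutation p = 0.0190, adjusted p = 0.190) and rho = 0.580 (permutation p = 0.0520, adjusted p = 0.429), and r was 0.549 without the 2 birds farthest from the AVPR1A median. In the other 9 species r ran from -0.28 to 0.48.

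**Figure D3:**
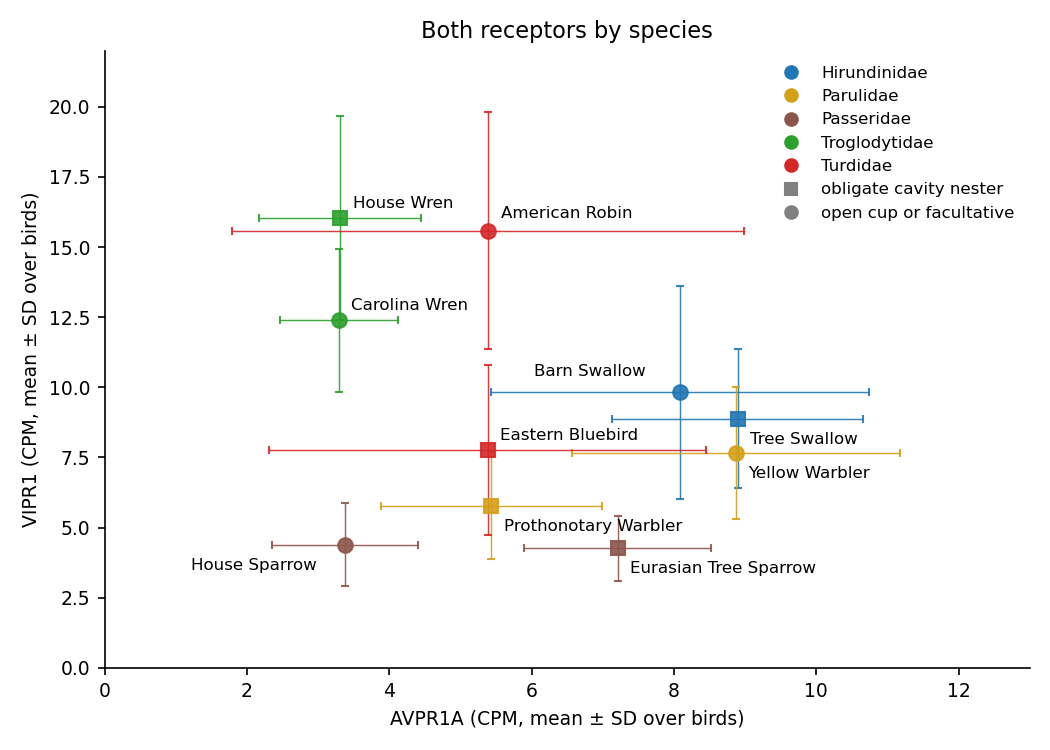
Species means of AVPR1A (horizontal axis, CPM) and VIPR1 (vertical axis, CPM) with the SD over birds as bars, coloured by family, with squares for obligate cavity nesters. Both wrens sit at upper left with 3.31 and 3.29 CPM of AVPR1A and 16.0 and 12.4 CPM of VIPR1, while both swallows lie to the right at 8.90 and 8.09 CPM of AVPR1A.

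Within families, AVPR1A differed between the species of a pair in Passeridae and Parulidae, in opposite directions, and VIPR1 in Turdidae and Troglodytidae, also in opposite directions. Differences are given as obligate nester minus partner on the log2 scale with the standard error, from edgeR's quasi-likelihood test with Benjamini-Hochberg adjustment over all genes. A difference between species includes any difference in how well their reads matched the sequence they were aligned to, and the rows of all 10 species are headed as zebra finch proteins. In bulk tissue, fewer cells with a transcript and less transcript per cell cannot be told apart. In each family about every other gene differed. The share called was 54.8% of the genes tested in Hirundinidae (28.8% higher and 25.9% lower in the obligate nester), 55.4% in Parulidae (28.1% and 27.3%) and 49% in Passeridae (24.2% and 24.8%). It was 56.9% in Troglodytidae (30.6% and 26.3%) and 56.3% in Turdidae (28.5% and 27.7%). Of the 10 differences of both receptors 4 passed, so the receptors differed no more often than genes in general.

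The largest AVPR1A difference was in Passeridae. Eurasian Tree Sparrow females had from 6.00 to 8.82 CPM (median 6.89) and males from 4.52 to 8.89 CPM (median 7.47). House Sparrow females had from 1.83 to 4.00 CPM (median 3.19) and males from 2.016 to 5.72 CPM (median 3.68). The species overlapped through House Sparrow male 4 (5.72 CPM) and Eurasian Tree Sparrow male 6 (4.52 CPM), and 11 of 12 Eurasian Tree Sparrows were above all House Sparrows. The mean was 2.14 times higher in Eurasian Tree Sparrows (log2 difference 1.09 ± 0.15, adjusted p = 1.03e-06). Without House Sparrow female 3 the difference was 1.08 ± 0.16. It was 1.21 ± 0.21 in females alone and 0.97 ± 0.24 in males alone. In the same family 24.2% of genes were called higher.

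Among markers in Passeridae, 2 of 8 striatal markers were lower in Eurasian Tree Sparrows, with a summed level of 183 to 601 CPM against 220 to 1034 CPM in House Sparrows, while 3 of 7 septal markers were higher and 1 lower, and 3 of 7 vascular markers were higher and 0 lower. The shares called over all genes in this family were 24.2% higher and 24.8% lower, so the striatal count lies near its share. The part of these markers in the AVPR1A difference was not tested.

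In Parulidae AVPR1A was lower in the obligate nester. Prothonotary Warbler females had from 3.63 to 7.97 CPM (median 4.77) and males from 3.60 to 7.57 CPM (median 5.72), while Yellow Warbler females had from 7.41 to 11.7 CPM (median 8.23) and males from 4.89 to 11.6 CPM (median 9.81). Of 12 Yellow Warblers, 8 were above all Prothonotary Warblers, and the overlap came from Yellow Warbler males 3 (4.89 CPM) and 8 (5.23 CPM) and females 4 (7.41 CPM) and 6 (7.82 CPM). The Yellow Warbler mean was 1.63 times higher (log2 difference -0.68 ± 0.17, adjusted p = 0.00108), in a family where 27.3% of genes were called lower. In females alone the difference was -0.76 ± 0.22 (adjusted p = 0.00891), and in males alone it was -0.61 ± 0.26 and did not pass (adjusted p = 0.0736). Among markers, 3 of 8 excitatory pallial markers were higher in Prothonotary Warblers, and 2 of 7 septal markers were higher and 2 lower. The septal counts lie near the shares over all genes, 28.1% higher and 27.3% lower. The part of these markers in the difference was not tested.

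AVPR1A did not pass the test in the other 3 families. The difference was 0.19 ± 0.17 in Hirundinidae (adjusted p = 0.363), 0.01 ± 0.18 in Troglodytidae (adjusted p = 0.950) and -0.01 ± 0.40 in Turdidae (adjusted p = 0.991). Leaving out Barn Swallow females 3 and 4 moved the Hirundinidae value to 0.30 ± 0.16 (adjusted p = 0.113). The Troglodytidae value joins opposite signs in the sexes, 0.42 ± 0.25 in females and -0.42 ± 0.20 in males, neither of which passed (adjusted p = 0.179 and 0.0994). The standard error in Turdidae was the widest of the 5.

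VIPR1 differed most in Turdidae, where it was lower in the obligate nester. Eastern Bluebird females had from 5.94 to 8.19 CPM (median 7.19) and males from 2.404 to 14.0 CPM (median 8.62). American Robin females had from 11.4 to 22.8 CPM (median 16.9) and males from 10.1 to 21.5 CPM (median 14.2). Eastern Bluebird males 10 (11.9 CPM) and 13 (14.0 CPM) reached into the range of the robins, and the other 10 of 12 bluebirds were below all robins. The robin mean was 2.01 times higher (log2 difference -1.003 ± 0.21, adjusted p = 0.000189), and 27.7% of genes were called lower in this family.

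Eastern Bluebird male 12, one of the libraries that stood apart, had the lowest VIPR1 level of its species (2.404 CPM), and without it the difference was -0.91 ± 0.18 (adjusted p = 0.000102). The difference was -1.20 ± 0.19 in females alone (adjusted p = 7.11e-05) and -0.81 ± 0.38 in males alone, where it did not pass (adjusted p = 0.111). Among markers, all 6 genes of blood cells fell in the obligate nester, and their summed level was 261 to 1547 CPM (median 564.4) in bluebirds against 358 to 8913 CPM (median 1610) in robins. Of 5 microglia markers 4 were lower and 1 higher, where 27.7% of all genes were called lower and 28.5% higher. The haemoglobin genes HBAA and HBAD were present in every bird. Among thrushes, once the mean of each species and sex was taken off, VIPR1 went with the blood markers with a median r of 0.487 over the 6 genes, 5 of them above 0. The median over all genes was 0.058. Striatal markers had a median r of 0.477 with VIPR1 in thrushes, all 8 above 0. Without Turdidae the blood median was -0.0038, with 3 of 6 above 0. The part of these markers in the VIPR1 difference was not tested.

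In Troglodytidae VIPR1 was higher in the obligate nester. House Wren females had from 12.1 to 20.01 CPM (median 16.6) and males from 11.3 to 23.7 CPM (median 15.1), against 8.76 to 14.4 CPM (median 11.5) in Carolina Wren females and 9.63 to 18.3 CPM (median 12.7) in males. Only 4 of 12 House Wrens were above all Carolina Wrens, whose highest bird was the library labelled Carolina Wren male 3. The House Wren mean was 1.30 times higher (log2 difference 0.41 ± 0.12, adjusted p = 0.00553), and 30.6% of genes were called higher in this family. The difference was 0.49 ± 0.12 without Carolina Wren female 1 and male 3. In females alone it was 0.50 ± 0.17 (adjusted p = 0.0237), and in males alone 0.33 ± 0.18, which did not pass (adjusted p = 0.164). Both oligodendrocyte markers with a row were lower in House Wrens, with a summed level of 197 to 444 CPM against 422 to 1032 CPM. They are only 2 genes, and 26.3% of all genes were called lower in this family. Their part in the VIPR1 difference was not tested.

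VIPR1 did not pass in Parulidae (-0.39 ± 0.19, adjusted p = 0.0829), Hirundinidae (-0.10 ± 0.20, adjusted p = 0.689) or Passeridae (-0.06 ± 0.19, adjusted p = 0.836). The Parulidae result depended on the scaling: with library size alone the difference was -0.55 and passed (adjusted p = 0.0217). Scaling by library size alone shifted the median difference of all genes to -0.17 in Parulidae and -0.20 in Passeridae, and the share of higher genes among those called fell from 50.7% to 33.0% and from 49.4% to 30.9%. Relative to that shift the Parulidae VIPR1 values of both scalings lie close together.

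**Figure D4:**
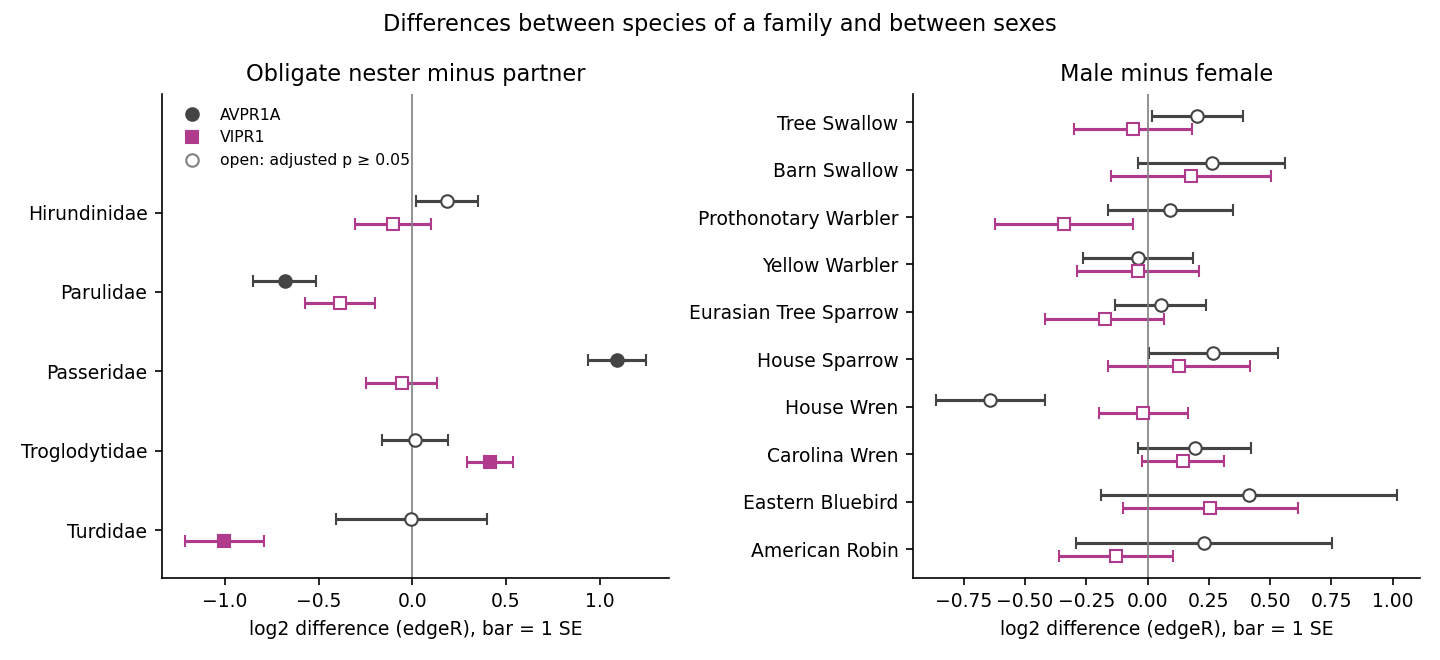
Log2 differences from edgeR with 1 SE as bars, for AVPR1A (circles) and VIPR1 (squares), as obligate nester minus partner in 5 families (left) and male minus female in 10 species (right). Filled symbols passed an adjusted p of 0.05. AVPR1A in Passeridae (1.09) and VIPR1 in Turdidae (-1.003) lie farthest from 0, and all symbols for sex are open.

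The difference between obligate nester and partner depended on family for both receptors. In 1 model of all birds the test over the 4 coefficients gave F = 7.39 for AVPR1A (adjusted p = 3.50e-05) and F = 7.99 for VIPR1 (adjusted p = 1.46e-05). This held for 89.5% of all genes, so it does not set the receptors apart. Over the 10 species means, with family as a block, obligate nesters differed from their partners by 0.09 ± 0.26 for AVPR1A (limma, adjusted p = 0.979) and by -0.24 ± 0.23 for VIPR1 (adjusted p = 0.952). By these means of log2 CPM, AVPR1A was higher in the obligate nester in 2 families and lower in 3, and VIPR1 was higher in 1 and lower in 4. Troglodytidae counts as lower for AVPR1A at -0.02 on this scale, while edgeR's value there was 0.01, so its sign is not settled. Other small values also changed sign in some of edgeR's alternatives. These were AVPR1A in Turdidae (-0.08 here) and VIPR1 in Passeridae (-0.02) and Hirundinidae (-0.10), so the counts of families include unsettled signs. An exact permutation test over the 32 exchanges of the labels within families gave p = 0.75 and p = 0.3125, two-sided, where 0.0625 is the smallest p that 5 families allow. For this comparison limma called 0 of 10639 genes, 0% of those tested, and 473 had an unadjusted p under 0.05. The AVPR1A mean moved with the families included: it was -0.15 without Passeridae and 0.28 without Parulidae. The VIPR1 mean was -0.04 without Turdidae and -0.39 without Troglodytidae.

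Sex made no detectable difference to either receptor. Over all birds the male minus female difference was 0.10 ± 0.10 for AVPR1A (adjusted p = 0.901) and -0.01 ± 0.08 for VIPR1 (adjusted p = 0.997), while 5.22% of genes were called for sex. The interaction of sex with obligate nesting was -0.15 ± 0.21 for AVPR1A and -0.13 ± 0.16 for VIPR1 (adjusted p = 0.879 and 0.865), and 0.0564% of genes, 6 in number, were called. Whether the sex difference varied among species was tested over 9 coefficients and did not pass for AVPR1A (adjusted p = 0.887) or VIPR1 (adjusted p = 0.954), with 1.06% of genes called.

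Within species no sex difference of either receptor passed. Genes called for sex made up 2.03% in the American Robin, 2.21% in the Barn Swallow, 1.87% in the Eastern Bluebird, 2.8% in the Eurasian Tree Sparrow and in the Prothonotary Warbler, 1.84% in the House Sparrow, 3.39% in the Tree Swallow and 2.73% in the Yellow Warbler. The male mean of AVPR1A was above the female mean in 8 of 10 species on the fitted scale, with differences up to 0.41 ± 0.60 in the Eastern Bluebird. This count takes Carolina Wren female 1 and male 3 under their labels. The House Wren went the other way with the smallest p. Its females had 4.09 ± 1.15 CPM (SD, n = 6), from 2.07 to 5.37, and its males 2.54 ± 0.311 CPM (n = 6), from 2.26 to 3.02. Of its females 5 of 6 were above all 6 males, and female 3 was below all of them. The difference was -0.64 ± 0.22 (adjusted p = 0.112), in a species where 4.78% of genes were called for sex. VIPR1 in the House Wren was 16.3 ± 3.45 CPM in females and 15.8 ± 4.15 CPM in males (n = 6 each). Leaving out the libraries that stood apart changed no call of either receptor by sex. In the Carolina Wren it did change the count of all genes called for sex: edgeR called 0 genes (0% of those tested, with 584 at an unadjusted p under 0.05) under the labels and 250 without female 1 and male 3.

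The spread of AVPR1A among birds of 1 species was widest in the thrushes. Its coefficient of variation was 66.8% in the American Robin and 57.1% in the Eastern Bluebird, against 18.2% to 34.4% in the other 8 species, where counting error alone would give 13.8% to 23.6%. In the thrushes counting error would give 16.9% and 17.6%. American Robin females ran from 1.54 to 9.44 CPM (median 4.70) and males from 2.19 to 12.8 CPM (median 4.15). Eastern Bluebird females ran from 2.45 to 7.30 CPM (median 4.32) and males from 0 to 11.4 CPM (median 6.24). Eastern Bluebird male 11 had no AVPR1A read among 4824261, which at 3 counts allows a level of up to 0.599 CPM. The same bird had 4.99 CPM of VIPR1, a receptor whose coefficient of variation in the thrushes (27.1% and 39.2%) lay close to the range of the other 8 species (20.6% to 38.7%).

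Shares of variance in log2 CPM were taken over all birds together, so they do not separate the thrushes from the other species. Of the AVPR1A variance over all birds, 33.0% lay between families, 12.7% between species of a family, 0.0876% between the sexes and 51.8% among birds within a species and sex. The last share was above that of 86.4% of genes, whose median was 26.0%. It includes counting error, at a median of 32 AVPR1A reads per bird, and the wide spread of the thrushes. The rank was not set against genes of like counts, and the share was not computed without the thrushes. For VIPR1 the shares were 56.6% between families, 11.8% between species of a family and 30.01% among birds within a species and sex. The family share of VIPR1 was above that of 77.6% of genes, with a median over genes of 40.5%.

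Of the vasotocin family list, AVPR1A is the only 1 of 7 genes with a row, and the peptides and other receptors of that list are not analysed here. Of the VIP family list 7 of 16 genes had a row, among them VIPR1. The receptors were VIPR2, the second VIP and PACAP receptor (VPAC2), ADCYAP1R1, the PACAP receptor PAC1, and GLP1R, the receptor for glucagon-like peptide. The peptides were ADCYAP1, which encodes PACAP, and GHRH, growth hormone-releasing hormone, and RAMP3 is an accessory protein of class B receptors. VIP itself is not analysed here.

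VIPR2 moved against VIPR1 in Turdidae. Eastern Bluebirds had 34.3 ± 11.5 CPM of VIPR2 (SD, n = 12) and American Robins 17.7 ± 4.71 CPM (n = 12), a log2 difference of 0.96 ± 0.18 (adjusted p = 4.99e-05). ADCYAP1 was higher as well, at 52.0 ± 21.6 against 32.7 ± 9.20 CPM (0.68 ± 0.21, adjusted p = 0.00739), and ADCYAP1R1 was at 80.05 ± 20.6 against 77.9 ± 22.8 CPM and did not pass. In this family the VIP family list held 3 genes higher and 2 lower of 7, with a median log2 difference of 0.04 against 0.02 over all genes. Shares called over all genes were 28.5% higher and 27.7% lower. The lower genes of the list were VIPR1 and GHRH (-0.77 ± 0.25), and the third higher gene was RAMP3 (0.48 ± 0.20). Thrush septal markers were higher in 4 of 7 and lower in 1, and their sum ran from 373 to 806 CPM in bluebirds and from 273 to 512 CPM in robins, and their part in the VIPR2 difference was not tested. Without Eastern Bluebird male 12 the same 3 genes were called higher and the same 2 lower.

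In Hirundinidae, where neither AVPR1A nor VIPR1 passed, 2 other receptors of the list were lower in the obligate nester. With RAMP3, the list held 1 gene higher and 2 lower of 7. Over all genes 28.8% were called higher and 25.9% lower there, so the lower count lies near its share. Tree Swallows had 18.2 ± 5.76 CPM of VIPR2 (n = 13) against 34.9 ± 13.9 CPM in Barn Swallows (n = 12; -0.84 ± 0.22, adjusted p = 0.00159). ADCYAP1R1 was at 63.7 ± 16.99 against 107 ± 20.9 CPM (-0.69 ± 0.12, adjusted p = 1.86e-05). RAMP3 was higher, at 14.7 ± 2.94 against 5.45 ± 2.42 CPM (1.49 ± 0.26). Without Barn Swallow females 3 and 4 these values were -0.92 ± 0.16 for VIPR2, -0.69 ± 0.14 for ADCYAP1R1 and 1.32 ± 0.15 for RAMP3, and all 3 passed. VIPR2 and ADCYAP1R1 did not pass in Parulidae, Passeridae or Troglodytidae.

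In Parulidae 2 genes of the list were higher and 1 lower: GHRH rose (0.74 ± 0.16), RAMP3 rose (0.38 ± 0.14) and GLP1R fell, from 13.8 ± 3.63 CPM in Yellow Warblers to 8.51 ± 2.85 CPM in Prothonotary Warblers (-0.68 ± 0.18, adjusted p = 0.00244). In Passeridae 0 were higher and 1 lower, RAMP3 (-0.73 ± 0.29), whose House Sparrow values ran from 4.35 to 30.4 CPM. It did not pass without House Sparrow female 3 (-0.31 ± 0.16, adjusted p = 0.126). In Troglodytidae 1 was higher, VIPR1, and 2 were lower, RAMP3 (-1.08 ± 0.15) and GHRH (-0.53 ± 0.22). Without Carolina Wren female 1 and male 3, GHRH did not pass (-0.35 ± 0.21, adjusted p = 0.160). RAMP3 was thus called in all 5 families, higher in 3 and lower in 2, and in 4 without the libraries that stood apart. Genes called in all 5 families were not counted over all genes, so this does not set RAMP3 apart. Over all genes the shares called higher and lower were 28.1% and 27.3% in Parulidae. They were 24.2% and 24.8% in Passeridae, and 30.6% and 26.3% in Troglodytidae. None of the 7 was called for sex or for strategy over species means by edgeR or limma.

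**Figure D5:**
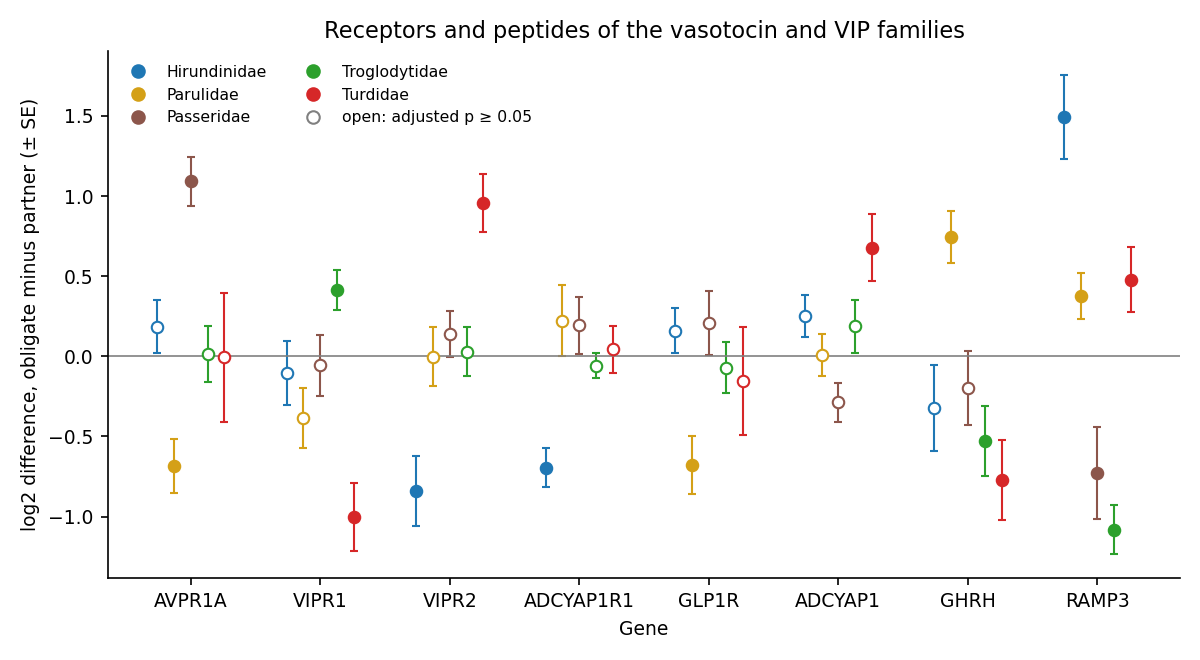
Log2 difference (obligate nester minus partner, ± SE, vertical axis) of AVPR1A and the 7 VIP family genes with a row (horizontal axis), coloured by family, with filled symbols for an adjusted p under 0.05. In Turdidae VIPR1 (-1.003) and VIPR2 (0.96) lie on opposite sides of 0, and RAMP3 is filled in all 5 families, and would be open in Passeridae without House Sparrow female 3.

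The signalling arms downstream of both receptors were counted from fixed lists. Of 12 genes of the Gq arm, on which AVPR1A acts, 3 were higher and 2 lower in Passeridae and 3 higher and 3 lower in Parulidae, with median log2 differences of -0.14 and 0.06 against -0.02 and -0.0019 over all genes. The shares called over all genes were 24.2% higher and 24.8% lower in Passeridae, and 28.1% and 27.3% in Parulidae. ITPR1, the calcium release channel of the endoplasmic reticulum opened by inositol trisphosphate, was the most raised gene of that arm in both, at 933 ± 209 against 449 ± 150 CPM in Passeridae (1.05 ± 0.17) and at 655 ± 141 against 275 ± 66.4 CPM in Parulidae (1.26 ± 0.12). It was thus higher in the obligate nester both where AVPR1A was higher and where AVPR1A was lower. The most lowered genes were DGKB, a diacylglycerol kinase (-0.43 ± 0.13), in Passeridae and RGS2, a regulator that limits Gq signalling (-1.03 ± 0.23), in Parulidae.

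Of 21 genes of the Gs arm, on which VIPR1 acts, 7 were higher and 5 lower in Turdidae. In Troglodytidae 20 were tested, with 4 higher and 7 lower. The median difference was 0.00040 in Turdidae and 0.01 in Troglodytidae, against 0.02 over all genes in each. Over all genes 28.5% were called higher and 27.7% lower in Turdidae, and 30.6% and 26.3% in Troglodytidae. In Turdidae PDE4B, a phosphodiesterase that breaks down cyclic AMP, was at 7.02 ± 3.41 CPM in bluebirds against 77.2 ± 9.73 CPM in robins (-3.46 ± 0.18), and the adenylyl cyclase ADCY6 was the most raised (0.90 ± 0.17). In Troglodytidae the adenylyl cyclases ADCY8 (0.53 ± 0.10) and ADCY2 (-1.01 ± 0.10) changed most in either direction. Hirundinidae had the most uneven Gs count, 11 higher and 3 lower of 21, with a median of 0.35 against 0.04. Over all genes 28.8% were called higher and 25.9% lower there. Without Barn Swallow females 3 and 4 the Gs count was 11 higher and 4 lower.

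Receptor desensitisation genes, the kinases and arrestins that silence activated receptors, gave 0 higher and 3 lower of 5 in Passeridae, 1 and 3 in Parulidae, 3 and 0 in Troglodytidae (2 and 0 without Carolina Wren female 1 and male 3), 2 and 3 in Turdidae and 0 and 1 in Hirundinidae. Over all genes 24.2% were called higher and 24.8% lower in Passeridae, 28.1% and 27.3% in Parulidae, and 30.6% and 26.3% in Troglodytidae. These shares were 28.5% and 27.7% in Turdidae and 28.8% and 25.9% in Hirundinidae. The median difference of the 5 genes was -0.41 in Passeridae, -0.52 in Parulidae, 0.18 in Troglodytidae, -0.54 in Turdidae and -0.01 in Hirundinidae, where the medians of all genes lay between -0.02 and 0.04. GRK2, a receptor kinase, was lower in Eurasian Tree Sparrows (-0.93 ± 0.14) and higher in Prothonotary Warblers (1.00 ± 0.12), opposite to AVPR1A in both families. GRK2 was the only 1 of the 5 genes called higher in Parulidae, and the 3 lower genes there went the same way as AVPR1A. Among these was the arrestin gene ARRB1, which was lower in the obligate nester of both families (-1.30 ± 0.05 in Parulidae). GRK3, a related kinase, was higher in Eastern Bluebirds (1.53 ± 0.14) and in House Wrens (0.40 ± 0.07). Among 9 genes that process or break down peptides, 2 were higher and 5 lower in Turdidae (median -0.30 against 0.02 over all genes), and CHGB, a protein of secretory granules, fell most (-2.09 ± 0.13). In that family 28.5% of all genes were called higher and 27.7% lower. By sex, over all birds, PAM, the enzyme that amidates peptides such as vasotocin and VIP, was higher in males (0.33 ± 0.03, adjusted p = 4.66e-15), and so was the peptide-cleaving enzyme PCSK1 (0.25 ± 0.05, adjusted p = 2.54e-05). Of the remaining genes of these arms only GNA11, a Gq-class subunit, was called for sex (-0.13 ± 0.04, adjusted p = 0.0369, lower in males). Over all genes 5.22% were called for sex. Beside them, 2 of 6 blood cell markers and 1 of 7 vascular markers were lower in males and 1 of 4 astrocyte markers was higher, and their part in these differences was not tested. Whether PAM, PCSK1 or GNA11 lies on a sex chromosome was not looked up, and the part of chromosome position was not tested.

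Genes were ranked by how closely they went with each receptor, by Pearson's r over all birds of the deviations of log2 CPM from the mean of a species and sex, among 9190 genes. Birds share the dissection and the depth of their library, so these are descriptions with no test. The 5 genes most like AVPR1A were ZC3H12C (r = 0.593), GPC6 (0.561), AMBRA1 (0.516), TXLNG (0.512) and DYRK1A (0.512), where 99% of genes lay under 0.322. They rested on the thrushes. Within Turdidae (24 birds) these r were between 0.738 and 0.885, and without Turdidae (97 birds) between -0.06 and 0.10. The thrushes were also used to pick the genes. They include Eastern Bluebird male 11, which had no AVPR1A read, and no r was computed without it. The marker lists differed in the same way: in Turdidae all 8 striatal markers were above 0 (median 0.444) and 7 of 8 excitatory pallial markers below (median -0.50), while over the other families the striatal median was -0.15. Markers of choroid plexus and ependyma had 0 of 4 above 0 in Turdidae (median -0.32), and a median of -0.01 without Turdidae. Their summed level ran from 9.75 to 7555 CPM in robins and from 39.1 to 9473 CPM in bluebirds. The part of these markers in the AVPR1A spread was not tested.

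The genes most like VIPR1 were SLCO3A1 (r = 0.614), FAM117B (0.594), DGKD (0.561), SGCD (0.541) and LCOR (0.537), with 99% of genes under 0.420. Without Turdidae these r were between 0.422 and 0.534, over birds that were also used to pick the genes. Within Troglodytidae they were lower, from -0.07 for SGCD to 0.492 for DGKD. All 8 striatal markers were above 0 with VIPR1, with a median of 0.296 over all birds, 0.477 in Turdidae and 0.224 without Turdidae, against medians of 0.013, 0.058 and -0.01 over all genes. This was not so in every family: in Troglodytidae 1 of 8 was above 0 (median -0.19) and in Parulidae 3 of 8 (median -0.04). Astrocyte markers went with VIPR1 in other families: all 4 were above 0 in Parulidae (median 0.413), Passeridae (0.556) and Troglodytidae (0.508), against 1 of 4 in Hirundinidae and 3 of 4 in Turdidae. Without Turdidae their median was 0.256, and all 7 vascular markers were above 0 as well (median 0.167). The summed striatal markers ranged from 129 to 754 CPM in bluebirds and from 252 to 834 CPM in robins. How far they account for the spread of either receptor was not tested.

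Over the 10 species means the nearest genes to AVPR1A were CSE1L (r = 0.971), UNC45A (0.944), TXNL1 (0.919), KLHL23 (0.903) and DDC (0.897), and those nearest to VIPR1 were DNAJB4 (0.916), FRYL (0.910), HPCA (0.908), DIPK2A (0.906) and CYFIP2 (0.900). These rest on 10 points, and 99% of genes lay under 0.744 for AVPR1A and under 0.793 for VIPR1. None of these 10 genes was among those most like the receptor over birds.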

How the data were processed

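RNA of the ventromedial telencephalon was sequenced as stranded mRNA libraries, per the labels' protocols. The authors deposited raw counts of reads per gene, whole numbers with 1 column per bird, not normalized. Trimming is named with fastp 0.20.1 and Trimmomatic 0.36, alignment with Bowtie2 2.4.4, and counting with featureCounts, per the submitters' processing notes. Per the file header the row names, 1 set for all 10 species, are zebra finch protein IDs, mostly written as gene symbols. The genome build and annotation release were not given in the sources used here. Groups come from the labels.

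Computations used R 4.3.3 with edgeR 4.0.16 (TMM, filterByExpr with a minimum count of 10, quasi-likelihood tests), limma 3.58.1 on species means of log2 CPM (prior count 2), and DESeq2 1.42.0 as an alternative. Permutation tests used 100000 resamples (Python 3.11.15, scipy 1.17.1). Tests were two-sided with Benjamini-Hochberg adjustment, and 0.05 was the threshold. They were also tested on simulated data.

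The named genes are both receptors, the genes of their 2 peptide and receptor lists, in each family the most raised and most lowered genes of 4 pathway lists averaging 5 CPM or more in each species, and the 5 genes most like each receptor, of which the text names a part. Refits of the pathway lists without the libraries that stood apart, and fits without single birds, were chosen after seeing the data. The receptors and all lists were chosen with earlier results of these data known. Alternatives were other scalings, filters, tests, sexes and left-out birds or families. Bird numbers repeat across species and sexes. Same-numbered birds did not deviate together, so numbers were not used as a block. P-values measure the spread between birds or, for strategy, species. The limit for a count of 0 covers counting error only.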

Additional observations from a re-analysis of the deposited data

Results flagged for a closer look

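VIPR1 in House Wren male 7 was 23.7 CPM, far above the other 5 males of its species, the nearest of which had 15.3 CPM. Of 40 groups of a species, sex and receptor it was the only 1 with such a gap, and chance gives about 1 in 20. Without this bird the VIPR1 difference between House Wren males and females was -0.16 ± 0.16 in place of -0.02 ± 0.18, and neither passed the test.

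The difference between obligate nester and partner varied among the 5 families for AVPR1A (adjusted p = 3.50e-05) and for VIPR1 (adjusted p = 1.46e-05) in edgeR's test over 4 coefficients. AVPR1A ran from -0.68 in Parulidae to 1.09 in Passeridae, and VIPR1 from -1.003 in Turdidae to 0.41 in Troglodytidae. Such a dependence was found for 89.5% of all genes.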

How the results depend on the processing

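Across the alternatives, 188 values of the receptors kept direction and call, 20 changed sign, 5 lost their call and 1 gained it. Most of the 188 were never called and stayed so. Some could not have changed sign: tests over several coefficients have no direction, and the exact permutation test used the same species means as limma. Among called differences within families, AVPR1A kept its call in 8 of 8 alternatives in Passeridae and 6 of 7 in Parulidae. VIPR1 kept its call in 6 of 8 in Troglodytidae and 7 of 9 in Turdidae. Among values that were never called, the sign changed for AVPR1A in Troglodytidae with DESeq2 size factors (-0.024), DESeq2's test (-0.022) and in males alone (-0.42), for AVPR1A in Turdidae with library size alone (0.027), no filter (0.0059), males alone (0.082) and without Eastern Bluebird male 11 (0.12, chosen after seeing the data), for VIPR1 in females alone in Hirundinidae (0.0049) and Passeridae (0.11), for VIPR1 by sex over all birds with library size alone (0.0015) and without the libraries that stood apart (0.0040), and for AVPR1A by strategy without Passeridae (-0.15). In males alone AVPR1A in Parulidae (-0.61) and VIPR1 in Troglodytidae (0.33) and Turdidae (-0.81) did not pass. In females alone, with as many birds in these families, each passed edgeR's test (adjusted p = 0.00891, 0.0237 and 7.11e-05). VIPR1 in Parulidae passed with library size alone (-0.55).

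With the bird number as a block, for which the check gave no ground (36 same-sex pairs had correlations from -0.55 to 0.40 and 40 pairs of opposite sex from -0.56 to 0.34), VIPR1 did not pass in Troglodytidae (0.33, adjusted p = 0.110) or Turdidae (-0.86, adjusted p = 0.317). The blocked sign changed for AVPR1A in Troglodytidae (-0.14), VIPR1 in Passeridae (0.032), AVPR1A by sex in the Eastern Bluebird (-0.56) and VIPR1 by sex in the American Robin (0.15), Eastern Bluebird (-0.29), House Sparrow (-0.14), House Wren (0.052) and Yellow Warbler (0.026). Only birds with a shared number inform these fits. In Turdidae the only such birds were males 9 and 11 of each species, so the blocked values there rest on them. Genes called in Turdidae numbered 5929, 2029 with the block and 3627 in males alone. By sex within species the block left between 6 and 221 genes called in the 8 species where the count moved by over 1.5 times (190 to 496 without it). Without the libraries that stood apart, 11 in place of 6 genes were called for the interaction of sex and obligate nesting. Where no cause is given, the cause was not tested. Without those libraries, a choice made for these lists after seeing the data, 6 calls in the pathway lists changed, of which RAMP3 in Passeridae (-0.31) and GHRH in Troglodytidae (-0.35) are named above. At a median of 32 AVPR1A reads per bird, small differences are not detectable.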
